A study of Mus musculus with 36 samples.

Results

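Lin28a, Lin28b, Trim71, Hmga1, Hmga2, Igf2bp1, Igf2bp2 and Igf2bp3 are 8 genes of the network that sets growth and developmental timing through the let-7 microRNAs. They were chosen by name, and all 8 were found among the 51734 gene symbols of the count table and among the 20511 genes that passed the filter on low counts. The study profiled polyadenylated RNA of mouse E14 embryonic stem cells (ESC) and of neural precursor cells (NPC) made from them with retinoic acid, to learn which transcripts depend on the MLL family of histone H3K4 methyltransferases. The 18 libraries used here form 6 groups of 3: each stage in wild type (WT), in a line in which MLL3 and MLL4 are catalytically dead (dCD), and in a line whose MLL2 carries a degron tag through which dTAG-13 directs the protein to degradation (MLL2dTAG). All 6 groups were labelled as given dTAG-13, WT included, so no comparison isolates the compound. It was used at 2 µM from day 1 of differentiation, and NPC were collected on day 4. The sources used here do not give how long ESC were exposed, or whether each edited line is a single clone. What an edit does and how the lines differ otherwise cannot be told apart. The labels do not say that replicates were separate cultures, so p-values measure only the spread between these samples, which may be technical.

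LIN28A and LIN28B are RNA-binding proteins that hold back the maturation of let-7, a family of microRNAs that is low in stem cells and accumulates as cells differentiate. Mature let-7 in turn represses messages that carry its complement in their 3′ UTR, among them those of LIN28 itself, of TRIM71 (an RNA-binding repressor also known as LIN41), of the HMGA chromatin proteins and of the IGF2BP proteins, which bind and stabilise messages such as that of the growth factor Igf2. The network is known for keeping early embryonic and fetal growth programs in place, and for its role in timing the fates of neural progenitors.

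What the 8 genes share in sequence is shown first. The mouse let-7 family in the RefSeq table (GRCm38.p6) came from 11 loci with 9 mature names, and all of them carried the same seed, bases 2 to 8, in capitals here for 3 of the names.
mmu-let-7a-5p: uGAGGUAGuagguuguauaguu
mmu-let-7g-5p: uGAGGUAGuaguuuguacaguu
mmu-miR-98-5p: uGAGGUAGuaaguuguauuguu
The reverse complement of that seed, written as DNA, CTACCTC, was searched on the sense strand of the 3′ UTR of 1 transcript per gene in GENCODE vM21 (GRCm38). All 8 members held at least 1 match, against 8.2% of 20708 annotated 3′ UTRs. The genes were chosen as members of the let-7 network, so this comparison is a description and not a test. Lin28b, Trim71, Hmga2 and Igf2bp1 each held 4 matches, Lin28a held 2, and Hmga1, Igf2bp2 and Igf2bp3 held 1 each, while 0.975% of all 3′ UTRs held 2 or more. The first match of each member is printed with the bases before it and 1 base after it, the match in capitals, so that the shared element can be seen beside flanks that differ.
Lin28a (chr4:134005189-134005218, minus strand): ttggagtgcacagcctgttgaaCTACCTCa
Lin28b (chr10:45381022-45381051, minus strand): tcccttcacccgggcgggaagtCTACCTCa
Trim71 (chr9:114512472-114512501, minus strand): aaagtacaacattgcctaagtcCTACCTCa
Hmga1 (chr17:27563270-27563299, plus strand): catcttctcctctgttcacaaaCTACCTCt
Hmga2 (chr10:120364224-120364253, minus strand): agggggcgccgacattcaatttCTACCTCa
Igf2bp1 (chr11:95961778-95961807, minus strand): aggcagtgctgtgcgaagtaaaCTACCTCa
Igf2bp2 (chr16:22059473-22059502, minus strand): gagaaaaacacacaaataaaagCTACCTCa
Igf2bp3 (chr6:49086787-49086816, minus strand): ttaaacgtgcatttttactcaaCTACCTCa
The members' 3′ UTRs are long, from 1178 bases in Hmga1 to 6337 in Igf2bp1, against a median of 852 bases over all annotated 3′ UTRs, and long 3′ UTRs hold a match more often. Among 3′ UTRs of 0.8 to 1.25 times the same length, a match was present in 33.9% for Igf2bp1, in 24.1% for Lin28b and in 8.03% for Hmga1. A match is a description of the sequence, and mature microRNAs were not measured in these libraries.

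Libraries held from 19430860 counts in ESC WT replicate 1 to 46041277 in NPC MLL2dTAG replicate 2, the lowest count of any member in any library was 172, and each of the 18 libraries correlated best with a library of its own group. The edits act on protein stability or on catalysis, so the transcript levels do not check them: Kmt2b, the gene of MLL2, lay at 201 to 214 CPM (counts scaled to the library size with TMM factors) in ESC MLL2dTAG and at 198 to 235 CPM in ESC WT. Kmt2c, the gene of MLL3, lay higher in ESC MLL2dTAG, at 275 to 286 CPM against 177 to 219 CPM in ESC WT. In NPC it lay at 299.6 to 335 CPM in MLL2dTAG and at 171 to 178 CPM in WT. Kmt2d, the gene of MLL4, lay at 220.3 to 233 CPM in ESC MLL2dTAG and at 151 to 231 CPM in ESC WT. The 8 stem cell markers summed to 3941 to 4376 CPM in ESC WT and to 33.4 to 34.7 CPM in NPC WT. The 8 neural markers summed to 104 to 107 CPM in ESC WT and to 269.6 to 277 CPM in NPC WT, where Neurog2, which was at 0 in ESC WT, was detected. All 8 endoderm markers also rose, where 39.1% of all genes were called higher. Their sum went from 179 to 207 CPM to 681 to 718 CPM, so the WT NPC libraries hold endoderm transcripts as well as neural ones. In NPC MLL2dTAG the stem cell markers summed to 211 to 214 CPM and the endoderm markers to 1972 to 1998 CPM. All 8 of each were above NPC WT in the test, beside 33.3% of all genes. NPC dCD had 49.3 to 50.5 CPM of stem cell markers, 544 to 580.5 CPM of endoderm markers and 442 to 484 CPM of neural markers. The neural sum in NPC MLL2dTAG was 312 to 318 CPM. Against NPC WT, 5 of the 8 neural markers were higher and 0 lower in dCD, beside 26.7% and 26.8% of all genes. In MLL2dTAG 4 neural markers were higher and 3 lower, beside 33.3% and 28.4%. Of the endoderm markers, 0 were higher and 5 lower in dCD. The mesenchyme markers summed to 704 to 724 CPM in NPC WT, 903 to 987 CPM in NPC dCD and 1081 to 1090.0 CPM in NPC MLL2dTAG. Against NPC WT, 6 of these 8 markers were higher and 0 lower in dCD, beside 26.7% and 26.8% of all genes. In MLL2dTAG 5 were higher and 3 lower, beside 33.3% and 28.4% of all genes. The next sums follow the order NPC WT, NPC dCD and NPC MLL2dTAG. The 6 neural crest markers summed to 57.5 to 60.2, 121 to 127 and 94.3 to 96.2 CPM in the same groups. In ESC all 8 mesenchyme markers were above WT in both edited lines, where 25.7% (dCD) and 28.7% (MLL2dTAG) of all genes were called higher. Their sums were 482 to 599.6 CPM in WT, 767 to 857 CPM in dCD and 867 to 923 CPM in MLL2dTAG. The endoderm sum was 355 to 372 CPM in ESC MLL2dTAG. The part of these markers in the differences of the members was not tested.

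From ESC to NPC the 8 genes moved in opposite directions. Lin28a, Trim71, Hmga1, Igf2bp1 and, by a small amount, Lin28b fell, and Hmga2, Igf2bp2 and Igf2bp3 rose, in each of the 3 genotypes. Calls are at an adjusted p under 0.05 in edgeR's quasi-likelihood test with Benjamini-Hochberg adjustment over all 20511 genes, and changes are log2 fold changes with a standard error (SE). In WT all 8 were called, 3 higher and 5 lower, in a comparison that called 79.5% of all genes tested, 39.1% higher and 40.4% lower. In dCD the same 3 genes were higher and the same 5 lower, with 77.6% of all genes called, 38.7% higher and 39.0% lower. In MLL2dTAG the split was again 3 and 5, with 78.2% of all genes called, 39.9% higher and 38.3% lower. So being called sets no member apart from the rest of the transcriptome here. In WT 4 of 8 changed at least 2-fold, but changes near that size were common. Igf2bp3, with a log2 change of 0.97 in WT, was only number 9579 of the 20511 genes by size. The median absolute log2 change was 1.31 over the members and 0.88 over all genes. In these bulk samples, fewer cells of a type and less RNA per cell cannot be told apart.

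**Figure D1:**
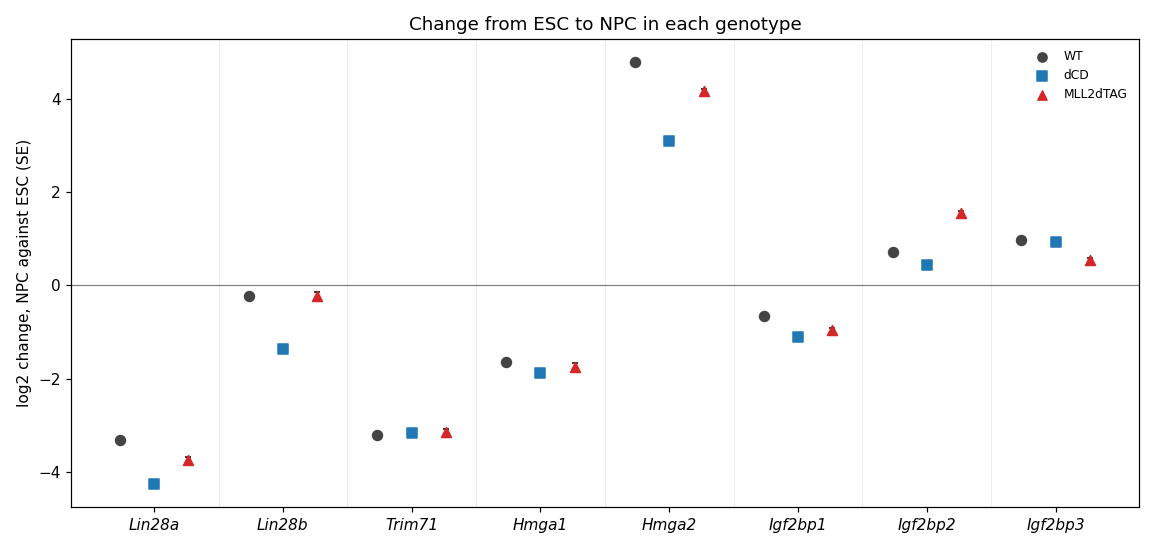
The log2 change from ESC to NPC (vertical axis, SE as bars) is plotted for each of the 8 genes (horizontal axis) in WT (grey circles), dCD (blue squares) and MLL2dTAG (red triangles), each from 3 libraries per stage. Hmga2 rose in all 3 genotypes, by 4.80, 3.10 and 4.18 on the log2 scale, and Lin28a fell in all 3.

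Both edited lines differed from WT in most members. In ESC, dCD changed 6 of the 8, 4 higher and 2 lower, where 48.3% of all genes were called, 25.7% higher and 22.6% lower. In ESC, MLL2dTAG changed 6, 3 higher and 3 lower, where 56.9% of all genes were called, 28.7% higher and 28.2% lower. In NPC, dCD changed 7, with Trim71 alone higher and 6 lower, and 53.5% of all genes were called, 26.7% higher and 26.8% lower. In NPC, MLL2dTAG also changed 7, with Trim71 again the 1 that was higher, and 61.7% of all genes were called, 33.3% higher and 28.4% lower. Both edited lines were compared with the same 3 WT libraries at each stage. In NPC the median log2 change of the members was -0.32 for dCD and -0.42 for MLL2dTAG, and that of all genes was -0.02 and 0.03. In ESC the members' medians were 0.07 for dCD and 0.05 for MLL2dTAG.

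**Figure D2:**
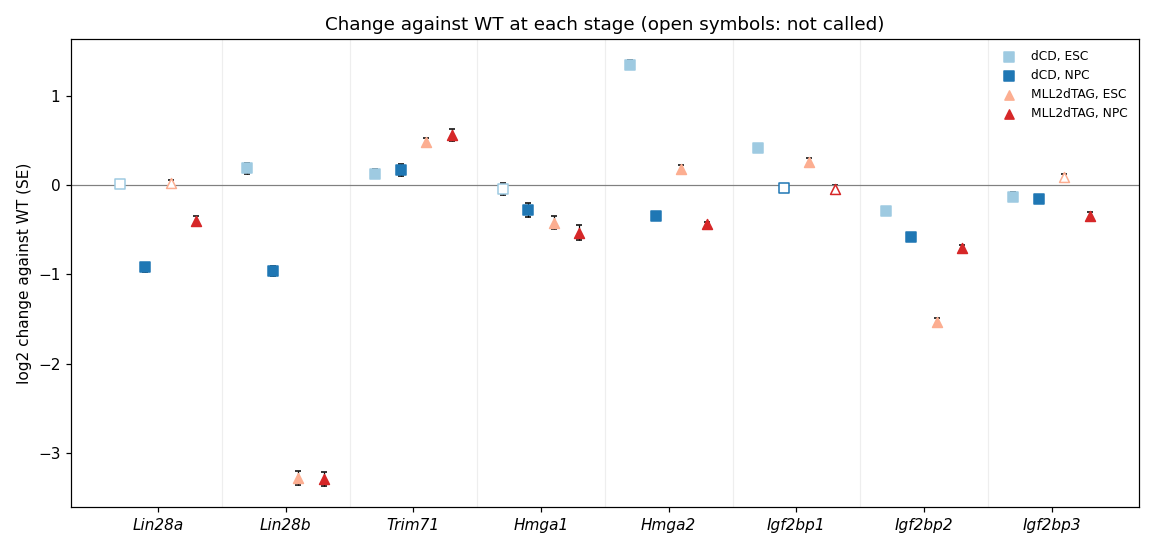
The log2 change against WT (vertical axis, SE as bars) is plotted for each gene (horizontal axis) in dCD (squares) and MLL2dTAG (triangles), pale for ESC and dark for NPC, with open symbols where the change was not called. Lin28b in MLL2dTAG lies at -3.28 in ESC and -3.29 in NPC, and Hmga2 in dCD at 1.35 in ESC and -0.35 in NPC.

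Set against each other, dCD and MLL2dTAG differed in 7 members in ESC, 5 higher in dCD and 2 lower, where 47.2% of all genes were called, 23.7% higher and 23.4% lower. In NPC they differed in 7 as well, 5 higher in dCD and 2 lower, where 55.9% of all genes were called, 24.3% higher and 31.6% lower. Of all calls there 43.5% were higher, and 54.8% with upper-quartile factors or 54.7% with library totals alone. Whether the difference of an edited line from WT was unlike in the 2 stages was tested as an interaction, the change against WT in NPC minus that in ESC. For dCD 5 members were called, all 5 lower in NPC relative to ESC, where 42.9% of all genes were called, 20.0% higher and 22.9% lower. For MLL2dTAG 5 were called, 1 higher and 4 lower, where 49.0% of all genes were called, 26.4% higher and 22.6% lower, so that 53.9% of all calls were higher, and 43.8% without the filter on low counts.

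Lin28a, the stem cell paralogue of the pair, was high in all ESC and fell on differentiation. The ESC WT libraries had 360.0, 329 and 355 CPM, the ESC dCD libraries 350.2, 349 and 353 CPM, and the ESC MLL2dTAG libraries 354, 362 and 342 CPM. These 9 libraries overlap, and no difference from WT was called in ESC: the log2 change was 0.01 in dCD (95% interval -0.07 to 0.09, adjusted p = 0.83) and 0.02 in MLL2dTAG (-0.06 to 0.10, adjusted p = 0.68). NPC WT had 34.3, 32.6 and 37.7 CPM, NPC MLL2dTAG 25.7, 27.7 and 25.8 CPM, and NPC dCD 17.3, 18.8 and 18.9 CPM. The 3 NPC groups do not overlap, with WT highest and dCD lowest. In WT the fall from ESC to NPC was 9.98-fold (log2 change -3.32, SE 0.05, adjusted p = 2.07e-36), and it was 19.1-fold in dCD and 13.3-fold in MLL2dTAG. Against NPC WT, the log2 change of Lin28a was -0.92 in dCD (SE 0.05, adjusted p = 1.02e-16) and -0.40 in MLL2dTAG (SE 0.05, adjusted p = 1.83e-08). The difference of NPC dCD from NPC MLL2dTAG was -0.53 (SE 0.06). The stem cell marker sum was 33.4 to 34.7 CPM in NPC WT, 49.3 to 50.5 CPM in NPC dCD and 211 to 214 CPM in NPC MLL2dTAG. Against NPC WT, 2 of the 8 markers were higher and 1 lower in dCD, beside 26.7% and 26.8% of all genes. All 8 were higher in MLL2dTAG, beside 33.3% of all genes. The part of stem cell transcripts in the change of Lin28a was not tested. Both interactions were called, -0.94 for dCD and -0.42 for MLL2dTAG.

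Lin28b, the paralogue that persists in later progenitors, had the largest changes against WT of the 8. ESC WT had 62.8, 69.3 and 63.2 CPM and ESC dCD 76.5, 76.7 and 70.5 CPM, while ESC MLL2dTAG had 6.30, 6.09 and 7.52 CPM. NPC WT had 59.2, 55.4 and 53.1 CPM, NPC dCD 28.1, 30.9 and 27.3 CPM, and NPC MLL2dTAG 6.05, 5.87 and 5.17 CPM. The 6 groups follow one another without overlap in the order ESC dCD, ESC WT, NPC WT, NPC dCD, ESC MLL2dTAG and NPC MLL2dTAG. In MLL2dTAG Lin28b was 9.74-fold lower than WT in ESC (log2 change -3.28, SE 0.08, adjusted p = 4.02e-28) and 9.80-fold lower in NPC (log2 change -3.29, SE 0.08, adjusted p = 8.75e-29). By size, that change was number 495 of the 20511 genes in ESC and number 602 in NPC. The interaction of MLL2dTAG with stage was -0.01 (95% interval -0.24 to 0.22, adjusted p = 0.97). In dCD it was slightly higher than WT in ESC (log2 change 0.19, SE 0.06, adjusted p = 0.0064) and 1.94-fold lower in NPC (log2 change -0.96, SE 0.06, adjusted p = 1.22e-15), an interaction of -1.15 (SE 0.08, adjusted p = 1.57e-13). The fall on differentiation, 1.17-fold in WT (log2 change -0.22, SE 0.06), was 2.59-fold in dCD. The WT fall depends on the correction used: it was -0.51 with offsets for GC content and length, and -0.12 with adjusted p = 0.068 without the filter on low counts, where the alternatives' adjusted p ran from 5.5e-12 to 0.068. In MLL2dTAG the fall of -0.23 (adjusted p = 0.033) was lost in 4 of 16 alternatives: without ESC MLL2dTAG replicate 3 (-0.10), without NPC MLL2dTAG replicate 3 (-0.16), with halved counts (adjusted p = 0.063) and with only the groups compared (adjusted p = 0.064). With offsets for GC content and length it was -0.50, and the adjusted p ran from 5.9e-06 to 0.43.

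Because Lin28b and Igf2bp2 had the deepest falls in ESC MLL2dTAG and Lin28a none, the RefSeq promoter windows of these 3 genes (GRCm38.p6, 250 bases before to 50 after the annotated start, 300 bases in all) are printed with CG in capitals, the dinucleotide that CXXC domains such as that of MLL2 are known to bind.
Lin28a (chr4:134018767-134019066, minus strand): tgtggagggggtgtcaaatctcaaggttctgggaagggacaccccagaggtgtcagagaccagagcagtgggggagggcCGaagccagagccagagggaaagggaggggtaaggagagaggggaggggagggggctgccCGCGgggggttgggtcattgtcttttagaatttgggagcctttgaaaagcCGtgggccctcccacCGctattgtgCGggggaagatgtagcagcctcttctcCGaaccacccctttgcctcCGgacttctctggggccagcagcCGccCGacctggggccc
Lin28b (chr10:45470152-45470451, minus strand): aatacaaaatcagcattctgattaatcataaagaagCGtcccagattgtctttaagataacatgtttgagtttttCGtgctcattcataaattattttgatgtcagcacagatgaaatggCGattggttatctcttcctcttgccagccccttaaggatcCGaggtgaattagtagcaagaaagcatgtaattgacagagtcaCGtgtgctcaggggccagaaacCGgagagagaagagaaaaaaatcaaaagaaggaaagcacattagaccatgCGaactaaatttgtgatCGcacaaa
Igf2bp2 (chr16:22163250-22163549, minus strand): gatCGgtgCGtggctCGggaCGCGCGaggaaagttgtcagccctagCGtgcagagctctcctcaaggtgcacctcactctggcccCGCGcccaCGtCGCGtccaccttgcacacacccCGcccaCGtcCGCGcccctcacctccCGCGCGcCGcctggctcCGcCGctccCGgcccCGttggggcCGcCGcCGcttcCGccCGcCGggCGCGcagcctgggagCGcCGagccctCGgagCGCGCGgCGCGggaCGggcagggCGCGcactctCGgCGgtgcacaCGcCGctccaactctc
The windows held 10 CG in Lin28a, 8 in Lin28b and 47 in Igf2bp2, against a median of 7 over 32851 promoters, of which 94.6% held at least 1. As many CG as in Igf2bp2 were found in 1.44% of promoters, and as many as in Lin28b in 48.6%. Among the other members the window held 40 CG in Hmga1 (38 at its other start), 25 in Igf2bp3, 19 in Trim71 and 12 in Hmga2. Of the 7 members matched, Lin28b had the fewest CG and Igf2bp2 the most in these windows, and the part of CG content in the falls was not tested. The RefSeq start of Lin28b lies inside the gene as GENCODE draws it, which runs over chr10:45376620-45486395, and other starts were not examined. No chromatin mark was measured in these libraries.

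Trim71, the post-transcriptional repressor of differentiation genes, fell on differentiation and was higher in MLL2dTAG than in WT. ESC WT had 198, 257 and 221 CPM, ESC dCD 242, 251 and 248 CPM, and ESC MLL2dTAG 306, 316 and 325 CPM. NPC WT had 24.1, 23.7 and 25.1 CPM, NPC dCD 26.3, 28.0 and 27.8 CPM, and NPC MLL2dTAG 33.0, 36.9 and 37.6 CPM. MLL2dTAG is the highest group at both stages and overlaps no other, while ESC WT and ESC dCD overlap. The fall on differentiation was 9.31-fold in WT (log2 change -3.22, SE 0.06), 9.02-fold in dCD and 8.79-fold in MLL2dTAG, and neither interaction was called (0.05 for dCD, 0.08 for MLL2dTAG). Against WT, MLL2dTAG was higher by 0.48 in ESC (SE 0.05, adjusted p = 9.20e-10) and by 0.56 in NPC (SE 0.07, adjusted p = 3.91e-09). The difference of dCD from WT was at the threshold, 0.13 in ESC (adjusted p = 0.049) and 0.17 in NPC (adjusted p = 0.037). The first was lost in 10 of 16 alternatives, among them those without ESC WT replicate 1 (0.05) or 3 (0.11) and without each ESC dCD replicate in turn, and its adjusted p ran from 7.2e-06 to 0.47. The second was lost in 6 of 16, among them those without NPC WT replicate 1 or 2 and without NPC dCD replicate 2 or 3, with adjusted p from 0.0017 to 0.12.

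The 2 HMGA genes, whose proteins bend AT-rich DNA and are abundant in embryonic chromatin, exchanged places. Hmga2 had 23.9, 25.7 and 22.9 CPM in ESC WT and 680.2, 666 and 672 CPM in NPC WT, a 27.8-fold rise (log2 change 4.80, SE 0.04, adjusted p = 1.04e-41). ESC dCD stood at 63.4, 62.7 and 59.1 CPM, and ESC MLL2dTAG at 25.8, 28.0 and 28.2 CPM. NPC dCD had 537, 523 and 524 CPM, and NPC MLL2dTAG 502, 484 and 501 CPM. No 2 groups overlap, although the highest ESC WT library and the lowest ESC MLL2dTAG library lie next to each other at 25.7 and 25.8 CPM. Hmga2 was 2.55-fold higher in dCD than in WT in ESC (log2 change 1.35, SE 0.05, adjusted p = 3.36e-22) and lower in NPC (log2 change -0.35, SE 0.03, adjusted p = 6.15e-11), the largest of the members' interactions with dCD at -1.70 (SE 0.06). From its higher level in ESC dCD it rose 8.56-fold, a smaller factor than in WT. In MLL2dTAG it was slightly higher in ESC (0.18) and lower in NPC (-0.44), an interaction of -0.62. The direct difference between the edited lines was 1.17 in ESC, while in NPC it was 0.09, which was lost in 3 of 16 alternatives, among them those without NPC dCD replicate 1 or NPC MLL2dTAG replicate 2.

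Hmga1 fell on differentiation in every genotype. ESC WT had 142, 113 and 128 CPM, ESC dCD 141, 118 and 112 CPM, and ESC MLL2dTAG 101, 97.0 and 87.6 CPM. NPC WT had 40.6, 40.8 and 40.8 CPM, NPC dCD 33.3, 33.8 and 33.3 CPM, and NPC MLL2dTAG 24.9, 27.6 and 32.3 CPM. Only ESC WT and ESC dCD overlap, and no difference was called between them (log2 change -0.04, 95% interval -0.18 to 0.10). The change from ESC to NPC was -1.64 in WT (SE 0.07, adjusted p = 7.30e-21), -1.88 in dCD and -1.75 in MLL2dTAG. The change of MLL2dTAG against WT was -0.42 in ESC and -0.53 in NPC, and that of dCD was -0.28 in NPC (adjusted p = 0.0029). The direct difference of NPC dCD from NPC MLL2dTAG, 0.24, was lost without NPC MLL2dTAG replicate 1 (0.16). Its interaction with dCD, -0.24, was not called (adjusted p = 0.064) but was called in 6 of 22 alternatives.

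The 3 IGF2BP genes encode oncofetal RNA-binding proteins named for their binding to Igf2 mRNA. Igf2bp2 and Igf2bp3 rose on differentiation, and Igf2bp1 went the other way. Igf2bp1 was high in ESC and fell on differentiation. ESC WT had 351, 409.7 and 372 CPM, ESC dCD 510.4, 516 and 493 CPM, and ESC MLL2dTAG 440.3, 459 and 455 CPM. NPC WT had 237, 242 and 239 CPM, NPC dCD 239, 240.1 and 223 CPM, and NPC MLL2dTAG 236, 235 and 228 CPM. The ESC groups stand apart in the order dCD, MLL2dTAG, WT, whereas the NPC groups lie close together, with all MLL2dTAG libraries just below all WT libraries. In ESC it was higher than WT by 0.42 in dCD (SE 0.04, adjusted p = 3.93e-11) and by 0.26 in MLL2dTAG (SE 0.04, adjusted p = 6.72e-07). In NPC the difference from WT was -0.03 in dCD (95% interval -0.11 to 0.05) and -0.04 in MLL2dTAG (-0.12 to 0.04), the former called with offsets for GC content and length and the latter in 3 of 16 alternatives. Both interactions were called, -0.45 and -0.30, and the fall on differentiation was -0.66 in WT, -1.11 in dCD and -0.96 in MLL2dTAG. With offsets for GC content and length these falls were larger, -1.15 in WT and -1.49 in MLL2dTAG.

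Igf2bp2 rose on differentiation, and was low in ESC MLL2dTAG. ESC WT had 184, 177 and 181 CPM, ESC dCD 147, 148 and 147 CPM, and ESC MLL2dTAG 62.0, 60.1 and 66.0 CPM. NPC WT had 293, 305 and 295 CPM, NPC dCD 199, 203 and 197 CPM, and NPC MLL2dTAG 184, 184 and 183 CPM. Both edited lines lie below WT at each stage without overlap, and the NPC MLL2dTAG libraries overlap those of ESC WT, a pair of groups that was not tested. In ESC, MLL2dTAG was 2.88-fold lower than WT (log2 change -1.53, SE 0.04, adjusted p = 1.32e-27) and the change in dCD was -0.29 (SE 0.04, adjusted p = 1.10e-08). In NPC the changes were -0.70 in MLL2dTAG (SE 0.03, adjusted p = 2.21e-19) and -0.58 in dCD (SE 0.03, adjusted p = 8.41e-17). The interaction was 0.83 for MLL2dTAG, the 1 member called higher there, and -0.28 for dCD. Correspondingly, the rise on differentiation was 1.65-fold in WT, 1.35-fold in dCD and 2.93-fold in MLL2dTAG.

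Igf2bp3 had 61.1, 65.5 and 63.9 CPM in ESC WT, 56.0, 59.6 and 59.0 CPM in ESC dCD, and 62.8, 69.9 and 69.6 CPM in ESC MLL2dTAG. NPC WT had 126, 123 and 125 CPM, NPC dCD 113, 115 and 108 CPM, and NPC MLL2dTAG 101, 97.0 and 97.2 CPM. The NPC groups do not overlap and are ordered WT, dCD, MLL2dTAG, and in ESC only WT and MLL2dTAG overlap. The rise on differentiation was 1.96-fold in WT, 1.92-fold in dCD and 1.46-fold in MLL2dTAG, with an interaction of -0.43 (SE 0.06, adjusted p = 2.50e-07) for MLL2dTAG and -0.03 (adjusted p = 0.77) for dCD. In NPC its change against WT was -0.34 in MLL2dTAG and -0.15 in dCD. The ESC difference of dCD, -0.13 (adjusted p = 0.021), was lost without ESC WT replicate 2 or 3 or ESC dCD replicate 1, and over 16 alternatives its adjusted p ran from 0.0011 to 0.13. The ESC difference of MLL2dTAG, 0.09 (adjusted p = 0.1), was called in 4 of 16 alternatives.

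**Figure D3:**
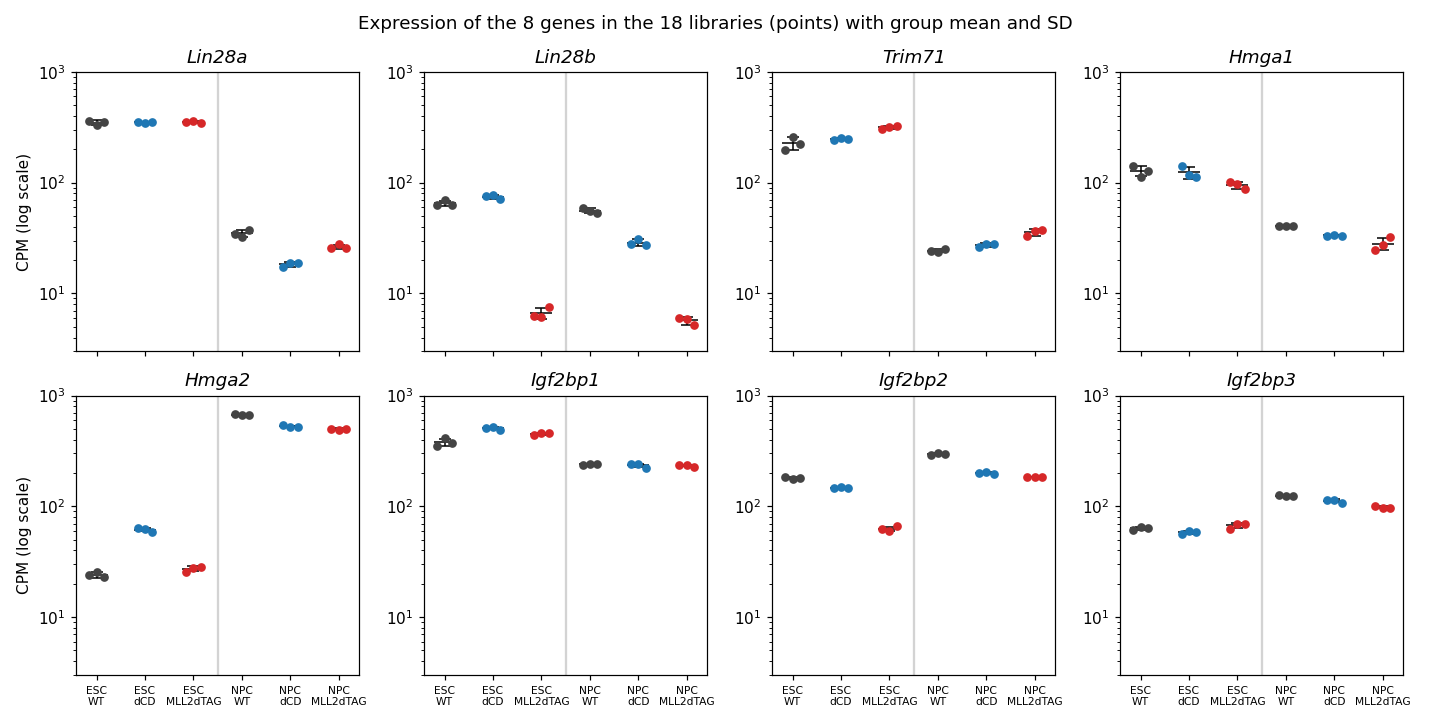
CPM (vertical axis, log scale) are plotted for each gene in the 6 groups (horizontal axis), with a point for each of the 3 libraries and the group mean with SD in black. Lin28b in both MLL2dTAG groups lies between 5.17 and 7.52 CPM, and Hmga2 in all NPC lies at 484 CPM or above on the same axis where ESC WT lies at 25.7 CPM or below.

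To compare levels between genes, CPM were divided by the exonic length in kilobases (RPKM). In ESC WT Lin28a stood at 99.3 ± 4.64 RPKM (SD, n = 3) and Lin28b at 12.1 ± 0.675 RPKM, so Lin28b made up 10.8 ± 1.01% of the pair. In NPC WT the 2 were level, at 9.94 ± 0.732 and 10.3 ± 0.569 RPKM, and Lin28b made up 51.0 ± 2.81%. The share was 50.4 ± 1.81% among NPC of dCD, where both paralogues were lower, and 12.3 ± 0.881% among NPC of MLL2dTAG. The sum of the pair was 111 ± 3.97 RPKM in ESC WT, and in NPC it was 20.3 ± 0.637 for WT, 10.6 ± 0.476 for dCD and 8.59 ± 0.366 for MLL2dTAG. Hmga2 rose from 9.63 ± 1.41% of the HMGA pair in ESC WT to 90.2 ± 0.113% in NPC WT, and from 21.9 ± 1.61% in ESC dCD to 89.8 ± 0.189% in NPC dCD. The IGF2BP sum was 104 ± 3.12 RPKM in ESC WT and 131 ± 1.40 in NPC WT, and in NPC it ranged from 100.3 to 105 in dCD and was 95.9 ± 0.892 in MLL2dTAG. Within it Igf2bp1 and Igf2bp2 were about equal in ESC WT, at 43.1 ± 2.11% and 42.9 ± 2.16%, and Igf2bp2 led in NPC WT with 56.3 ± 0.597%. In ESC MLL2dTAG, Igf2bp1 took 63.5 ± 0.684% and Igf2bp2 and Igf2bp3 18.3% each. These shares are descriptions with no test of their own.

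**Figure D4:**
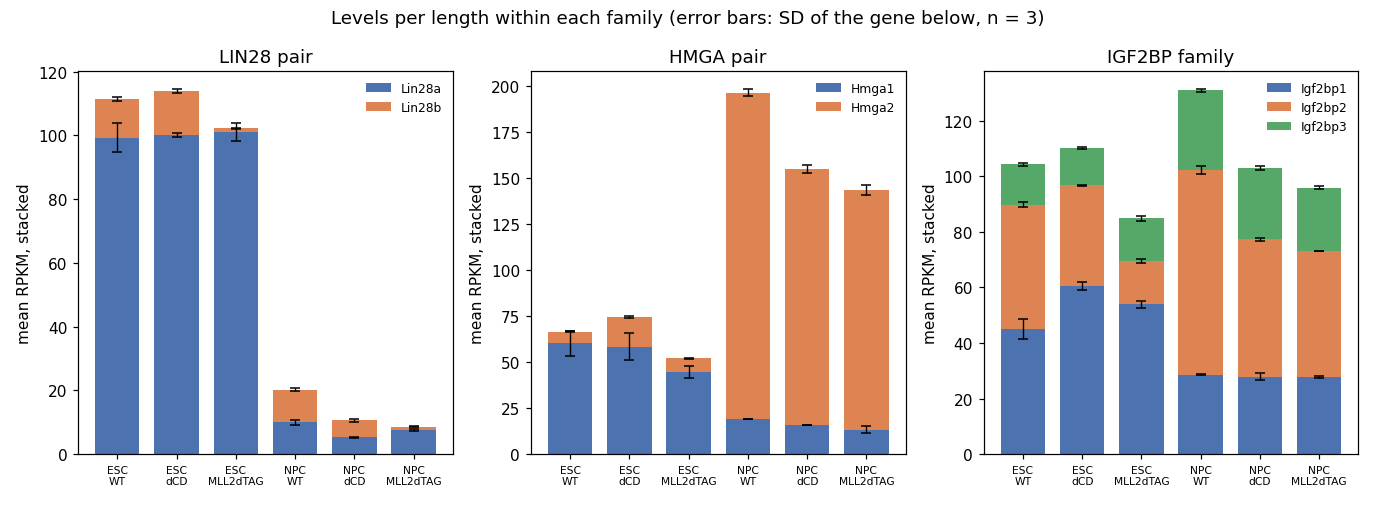
Mean RPKM (vertical axis, stacked, from 0) are plotted for the LIN28 pair, the HMGA pair and the IGF2BP family in the 6 groups, each bar with the SD of the gene under it (n = 3). The LIN28 bar drops from 111 RPKM in ESC WT to 20.3 in NPC WT, while the HMGA bar rises and changes from mostly Hmga1 to mostly Hmga2.

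The proteins that make, tail and destroy let-7 were listed next. Of 12 such genes, all tested, 7 rose and 4 fell from ESC to NPC in WT (median log2 change 0.24), where 39.1% of all genes were called higher and 40.4% lower. Tut4, listed as Zcchc11, the terminal uridylyltransferase that LIN28A recruits to mark pre-let-7 for decay, rose from 148 ± 6.27 to 295 ± 4.78 CPM (SD, n = 3; log2 change 1.00, SE 0.04), and Prkra, a Dicer partner, rose by 0.67. Tarbp2, the other Dicer partner, fell by 0.44. In NPC dCD 7 of the 12 were below WT and 2 above (median -0.14), where 26.8% of all genes were called lower and 26.7% higher, led by Dis3l2, the nuclease that degrades the tailed precursor (-0.57, SE 0.05), and Tut4 as Zcchc11 (-0.52, SE 0.04). In NPC MLL2dTAG 6 were lower and 6 higher, where 61.7% of all genes were called, with Dis3l2 at 30.6 ± 0.54 CPM against 55.2 ± 0.908 CPM in WT (-0.85, SE 0.05), and Dgcr8, the partner of Drosha, higher (0.45, SE 0.04). In ESC, 5 were lower and 3 higher in dCD and 3 lower and 4 higher in MLL2dTAG, where 48.3% and 56.9% of all genes were called, with Dgcr8 higher (0.59 and 0.45) and Dis3l2 lower (-0.36 and -0.50) in the 2 lines.

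Of 7 let-7 host transcripts or loci, 5 were in the table and 1 passed the filter, Mir99ahg, the long noncoding host of let-7c. It had 0 counts in the 3 ESC WT libraries and 291, 320 and 355 counts in NPC WT, at least 240-fold higher than the limit of 3 counts over the ESC group. It had 4 counts in each ESC dCD library, and 4 counts in 1 of the 3 ESC MLL2dTAG libraries. The other 4, which are the let-7 loci themselves, had 0 to 2 counts in any library. In NPC MLL2dTAG no difference from NPC WT was called (0.03), and NPC dCD was higher by 0.31 (SE 0.12, adjusted p = 0.025).

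Other genes known as let-7 targets gave no common direction. Of 23 in the list, 22 were tested, and 13 rose and 9 fell from ESC to NPC in WT (median 0.41, against -0.04 over all genes), in a comparison that called 39.1% of all genes higher and 40.4% lower. Ccnd2, a G1 cyclin, rose from 42.3 ± 5.41 to 270.5 ± 5.22 CPM (2.66, SE 0.06), and Thbs1, a matrix glycoprotein, fell from 335 ± 41.7 to 46.5 ± 2.05 CPM (-2.85, SE 0.06). In NPC dCD 10 of the 22 were lower and 7 higher than WT (median -0.08), where 53.5% of all genes were called, among them Mycn, a proliferation factor of neural progenitors, at 43.7 ± 3.35 CPM against 101 ± 2.01 (-1.21, SE 0.04). In NPC MLL2dTAG 6 were lower and 10 higher (median 0.07), where 61.7% of all genes were called, with Thbs1 higher (1.38, SE 0.06) and Zswim5 lower (-1.17, SE 0.06). Thbs1 was above NPC WT in NPC dCD as well, at 230.0 ± 7.13 CPM. That is more than the 121 ± 2.41 CPM of NPC MLL2dTAG. In ESC, 12 were higher and 6 lower in dCD and 6 higher and 9 lower in MLL2dTAG, where 48.3% and 56.9% of all genes were called. Fign, a microtubule-severing enzyme, was at 0.81 ± 0.204 CPM in ESC MLL2dTAG against 5.51 ± 1.09 in ESC WT (-2.79, SE 0.18).

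The insulin-like growth factor axis, which includes the Igf2 message that the IGF2BP proteins bind, held 12 genes. In WT 11 of them rose and 1, Igfbp2, fell, where 39.1% of all genes were called higher and 40.4% lower, with a median log2 change of 3.61 against -0.04 over all genes, and the count was 11 and 1 in dCD (median 3.04) and in MLL2dTAG (median 3.49), where 38.7% and 39.9% of all genes were called higher. Igf2, the fetal growth factor, rose from 25.0 ± 0.679 to 2903 ± 6.85 CPM in WT (6.86, SE 0.05), and Igfbp5, a binding protein, from 3.16 ± 0.296 to 1588 ± 12.6 CPM (8.95, SE 0.07). In NPC MLL2dTAG Igf2 was only 254 ± 3.46 CPM, a change of -3.51 against NPC WT (SE 0.04, adjusted p = 3.23e-37), while H19, the imprinted noncoding neighbour of Igf2, was higher, at 4215 ± 223 against 2672 ± 48.7 CPM (0.66, SE 0.04). In all, 6 of the 12 were lower and 4 higher than WT in NPC MLL2dTAG, beside 28.4% and 33.3% of all genes. In NPC dCD 10 of the 12 were lower and 2 higher (median -0.52), beside 26.8% and 26.7% of all genes, Igfbp5 at 610.5 ± 17.3 CPM (-1.38, SE 0.04), Igf2 at 2328 ± 78.6 CPM (-0.32, SE 0.04) and H19 at 1554 ± 17.3 CPM (-0.78, SE 0.04). In ESC, 5 were higher and 3 lower in dCD, where 48.3% of all genes were called, and 1 was higher and 7 lower in MLL2dTAG, where 56.9% were called and Igfbp3 fell by 1.58. Igf1r and Irs2 stand in this list and in that of let-7 targets. The 8 endoderm markers, none of them at 0 in NPC, summed to 1972 to 1998 CPM in NPC MLL2dTAG and to 681 to 718 CPM in NPC WT, and their part in these differences was not tested.

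**Figure D5:**
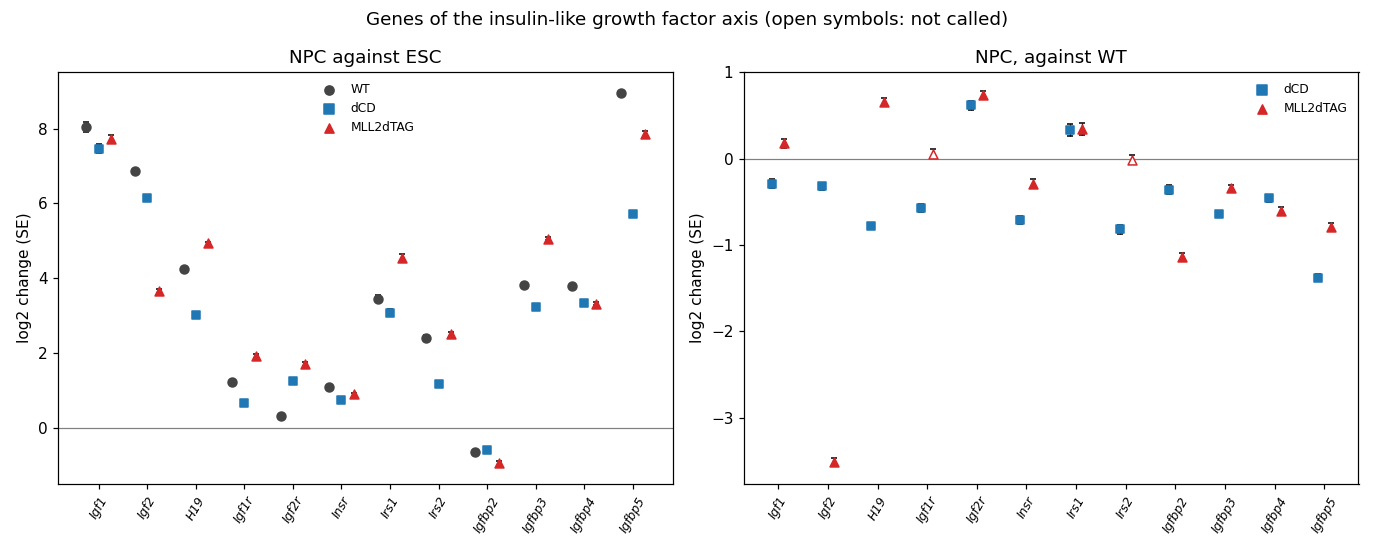
The log2 change (vertical axis, SE as bars) of the 12 genes of the insulin-like growth factor axis is plotted from ESC to NPC in each genotype (left) and against WT within NPC (right), with open symbols where the change was not called. Igf2 in NPC MLL2dTAG lies at -3.51, and H19 in the same libraries at 0.66.

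Among 10 other high mobility group genes, 7 rose and 1 fell from ESC to NPC in WT (median 0.56), beside 39.1% and 40.4% of all genes. Hmgb3 rose from 19.8 ± 0.67 to 127 ± 1.94 CPM (2.69, SE 0.05) and Hmgn3, a nucleosome-binding protein, from 3.09 ± 0.653 to 23.3 ± 1.62 CPM (2.89, SE 0.11). Hmgn3 was at 1.77 ± 0.152 CPM in NPC MLL2dTAG (-3.71 against WT, SE 0.12), and Hmgn5 was lower there too (-1.11, SE 0.07) and in ESC MLL2dTAG (-2.86, SE 0.09). In NPC MLL2dTAG 5 of the 10 were lower and 2 higher, beside 28.4% and 33.3% of all genes, and in NPC dCD 7 were lower and 1 higher, beside 26.8% and 26.7%. In ESC dCD 1 was lower and 5 higher, beside 22.6% and 25.7% of all genes, and in ESC MLL2dTAG 5 were lower and 2 higher, beside 28.2% and 28.7%. Another list of 16 genes held RNA-binding partners and relatives of the members and, in addition, Cdkn1a, which is neither. Of these 16 genes, 5 rose and 11 fell on differentiation in WT (median -0.19), beside 39.1% and 40.4% of all genes. Csdc2, a cold-shock domain protein, rose by 3.01 (SE 0.13), and Elavl2, a neuronal Hu protein, fell by 1.68 (SE 0.06). In NPC dCD 7 of the 16 were higher and 1 lower, beside 26.7% and 26.8% of all genes, with Cdkn1a, the cell cycle inhibitor, at 205 ± 8.23 against 90.5 ± 2.65 CPM (1.18, SE 0.04). In NPC MLL2dTAG 7 were higher and 7 lower, beside 33.3% and 28.4% of all genes, with Trim32, a relative of Trim71, at 36.3 ± 0.397 against 75.3 ± 1.32 CPM (-1.05, SE 0.05).

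The genes whose log2 CPM followed a member most closely over the 18 libraries, among 11797 with a mean of at least 5 CPM, are given as a description. The libraries fall into 6 groups and mainly into 2 stages, so these correlations rest largely on group means. They were Nek2 and Parp1 for Lin28a (Pearson r 0.998 and 0.996), Cdca7l and Maoa for Lin28b (0.987 and 0.983), Sult4a1 and Hsd17b14 for Trim71 (both 0.997), and Anxa7 and Ccdc58 for Hmga1 (0.993 and 0.990). They were Sh3pxd2b and Sdc2 for Hmga2 (0.998 and 0.997), Zfp992 and Sf3b3 for Igf2bp1 (0.990 and 0.985), Uhrf2 and Sept3 for Igf2bp2 (0.986 and 0.984), and Mapre3 and Srgap3 for Igf2bp3 (0.988 and 0.986). Of these 16 names, 6 were also found from the 6 group means.

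Several members overlap other genes in GENCODE vM21. Malsu1 lies over Igf2bp3 and AI413582 over Hmga1 on the opposite strand, with at most 47.6% and 43.3% of the member's count in a library, and partners of the other members reached at most 3.57%. The library kit keeps strand, but the sources used here do not give the strand setting of the counting, so reads of such pairs may not be separated.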

How the data were processed

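The 8 genes and all gene lists were chosen with earlier results of these data known. The table the authors deposited holds whole-number read counts by gene symbol. A TruSeq Stranded mRNA kit was used, per the labels' protocols, and HTSeq is named in the submitters' processing notes. The aligner, genome build and strand setting are not given in the sources used here. Columns were matched to samples by name. A further 6 columns with repeated names and 12 columns of another table were not used, so 18 of 36 samples, in 8 of 14 groups, were not analysed here.

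In R 4.3.3, edgeR 4.0.16 was fitted to the 18 libraries with 1 mean per group (filterByExpr, TMM factors 0.967 to 1.05, glmQLFit and glmQLFTest, two-sided, Benjamini-Hochberg over 20511 genes, called at adjusted p under 0.05, biological CV 4.01%). The functions were tested on simulated data. RPKM used GENCODE vM21 exonic lengths. Named genes were all members, up to 4 called genes per list with the largest change and a mean of at least 5 CPM, and the 2 genes most like each member. Total counts were 19430860 to 46041277. The limit for 0 counts, 3 counts, is 0.0652 to 0.154 CPM in a library and covers counting error only. Of counts from 1 to 10, 60.8% to 66.5% were even, so halved counts were an alternative. The other alternatives were other scaling factors, DESeq2 1.42.0, limma 3.58.1, no filter, only the groups compared, a replicate block, offsets for GC content and length, and each library left out. One further feature and an alternative that used it are not reported here.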

Additional observations from a re-analysis of the deposited data

Results flagged for a closer look

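The change of an edited line against WT differed between ESC and NPC, by an interaction term in edgeR's quasi-likelihood test, for 5 members in each line. For dCD the change in NPC minus that in ESC was -0.94 for Lin28a, -1.15 for Lin28b, -1.70 for Hmga2, -0.45 for Igf2bp1 and -0.28 for Igf2bp2. For MLL2dTAG it was -0.42 for Lin28a, -0.62 for Hmga2, -0.30 for Igf2bp1, 0.83 for Igf2bp2 and -0.43 for Igf2bp3. Lin28b and Hmga2 in dCD, and Hmga2 in MLL2dTAG, were above WT in ESC and below it in NPC. All 10 were called under each of the 22 alternatives that gave a value for them.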

How the results depend on the processing

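The 88 results of the members (8 genes in 11 comparisons) gave 1515 values under other settings: 1440 kept their direction and their side of the threshold, 29 were no longer called, 16 became called and 30 changed sign. The counts of members called stayed within 1 or 2 of the reported ones, with a lowest of 4 of 6 for ESC dCD against WT. Every change of sign was in a member that was not called in the reported test. With offsets for GC content and length the log2 change was -0.02 (Lin28a) and 0.07 (Hmga1) in ESC dCD against WT, -0.01 for Lin28a in ESC MLL2dTAG against WT, and -0.01 for Igf2bp1 in NPC dCD against MLL2dTAG. The interaction values with these offsets were -0.04 for Trim71 with dCD, 0.01 for Lin28b and 0.02 for Hmga1 with MLL2dTAG. Fitting only the groups compared gave 0.00 for Lin28a in ESC dCD against WT and 0.01 in ESC dCD against MLL2dTAG; upper-quartile factors gave -0.03 in ESC MLL2dTAG against WT and 0.05 in ESC dCD against MLL2dTAG. The interaction of Trim71 with MLL2dTAG was 0.00 with library totals alone and -0.01 without the filter, and that of Lin28b was 0.01 with limma-trend. Leaving out each library in turn gave these ranges. Lin28a: -0.02 to 0.04 in ESC dCD and -0.02 to 0.05 in ESC MLL2dTAG against WT, and -0.02 to 0.01 in ESC dCD against MLL2dTAG. Hmga1 in ESC dCD: -0.14 to 0.04. Igf2bp1: -0.05 to 0.00 in NPC dCD against WT and -0.01 to 0.04 in NPC dCD against MLL2dTAG. Interactions: Trim71 -0.06 to 0.13 with dCD and -0.02 to 0.17 with MLL2dTAG, and Lin28b -0.07 to 0.11 with MLL2dTAG. The cause was not tested.

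A replicate block changed no call of a member: 8, 8 and 8 were called from ESC to NPC, 6 and 6 against WT in ESC, 7 and 7 in NPC, 7 and 7 between the edited lines, and 5 and 5 in the interactions. Deviations of same-numbered libraries correlated at -0.03 to 0.03 and 6 of 18 libraries correlated best with their own number. No pairing by number was seen over the genes tested, which cannot exclude that a number marks a shared culture or day. Upper-quartile factors moved the median of all genes by over 0.1, from 0.00 to -0.11, in MLL2dTAG NPC against ESC. The higher share of calls in NPC dCD against MLL2dTAG was 43.5% and became 54.8% with upper-quartile factors and 54.7% with library totals, and that of the MLL2dTAG interaction, 53.9%, became 43.8% without the filter. With 3 libraries a group, changes of the size of the SE, 0.03 to 0.11, are not resolved.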
